A study of Mus musculus with 4 samples.

Results

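The sarcomeric myosin chains measured here were the heavy chains Myh6 and Myh7 and the light chains Myl1, Myl2, Myl3, Myl4 and Myl7. Every probe set that the platform annotation assigned to exactly 1 of these symbols was taken, which gave 9 probe sets of 7 genes, out of 10833 probe sets with 1 symbol and 12422 in all without controls. The RNA came from heart ventricle of mice at 6 months of age, 2 samples from transgenic mice with moderate heart-specific overexpression of serum response factor (SRF) and 2 from non-transgenic mice, which the design text calls wild type. Each sample was read on 1 Affymetrix oligonucleotide array. The sources used here do not name the transgene's promoter, the number of lines, the strain or the sex. The question was which transcripts differ in amount between the hearts.

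Myosin is the motor of the thick filament. A pair of heavy chains carries the motor heads, and each head binds an essential and a regulatory light chain. The adult mouse ventricle is built mainly from the alpha heavy chain Myh6, the essential light chain Myl3 and the regulatory light chain Myl2, while the beta heavy chain Myh7 is the main form of the fetal ventricle and of slow skeletal muscle and is a widely used marker of hypertrophy. Myl4 and Myl7 are the essential and regulatory chains of the atrium and of the early embryonic heart, and Myl1 is the essential chain of fast skeletal muscle. SRF binds the CArG box, a short AT-rich element between CC and GG found in many muscle gene promoters.

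The 250 bases before the annotated start are printed for the 5 genes with a window that held either of the elements searched, so that their places can be seen. Letters in capitals mark a CArG box or the M-CAT element CATTCC, which TEAD factors bind, on either strand. The sequences are those of RefSeq on GRCm38.p6, read 5′ to 3′ on the strand of the gene, and all 7 genes had a window in that table. The window of Myl7 is chr11:5898783-5899032, that of Myl3 chr9:110763428-110763677, that of Myl1 chr1:66945057-66945306, that of Myh7 chr14:54994627-54994876 (the more upstream of 2 annotated starts) and that of Myh6 chr14:54966608-54966857. Myl3 lies on the + strand and the others on the - strand. Those of Myl1 and Myh6 fall inside the annotated span of their gene.
Myl7: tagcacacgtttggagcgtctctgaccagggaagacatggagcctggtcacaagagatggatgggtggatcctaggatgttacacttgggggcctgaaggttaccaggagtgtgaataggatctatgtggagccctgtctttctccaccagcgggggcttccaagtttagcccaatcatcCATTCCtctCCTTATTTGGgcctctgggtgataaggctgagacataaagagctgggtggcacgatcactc
Myl3: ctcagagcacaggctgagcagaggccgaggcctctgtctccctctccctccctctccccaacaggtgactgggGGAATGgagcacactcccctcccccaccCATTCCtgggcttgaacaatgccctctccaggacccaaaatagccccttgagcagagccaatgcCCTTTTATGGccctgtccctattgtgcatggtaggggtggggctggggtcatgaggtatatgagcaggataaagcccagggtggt
Myl1: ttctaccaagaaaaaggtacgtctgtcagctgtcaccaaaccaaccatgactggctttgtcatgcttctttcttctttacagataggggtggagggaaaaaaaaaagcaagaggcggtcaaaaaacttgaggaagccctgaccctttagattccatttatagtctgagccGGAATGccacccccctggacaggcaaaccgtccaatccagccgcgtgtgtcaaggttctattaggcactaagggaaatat
Myh7: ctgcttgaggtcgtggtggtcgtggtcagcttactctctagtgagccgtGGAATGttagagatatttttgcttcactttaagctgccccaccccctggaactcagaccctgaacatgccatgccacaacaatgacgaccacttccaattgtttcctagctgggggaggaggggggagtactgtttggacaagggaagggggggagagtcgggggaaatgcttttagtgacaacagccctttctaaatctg
Myh6: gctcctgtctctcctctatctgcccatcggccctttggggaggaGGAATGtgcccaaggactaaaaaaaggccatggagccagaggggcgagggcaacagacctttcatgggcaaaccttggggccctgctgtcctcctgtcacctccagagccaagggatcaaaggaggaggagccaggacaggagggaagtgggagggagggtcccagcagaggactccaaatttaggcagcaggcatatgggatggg
A CArG box stood in the windows of Myl7 (61 to 52 bases before the start) and Myl3 (85 to 76 bases before it), and in no window of the other 5 genes. That made 2 of the 9 windows of the 7 genes, against 1.47% of all 32851 windows of this length in the table. Only exact matches were counted. Sites with a single letter off, such as cctttcatgg in the Myh6 window, were left out. The M-CAT element was found in 5 of the 9 windows, those printed, against 12.6% of all windows. The window of the second Myh7 start, both windows of Myl2 and that of Myl4 held neither element and are not printed. In Myl7 the M-CAT element lay beside the CArG box without overlap. A match describes the letters of these windows and shows no binding.

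The arrays were read as deposited, with median signals of 49.0 and 50.6 on the transgenic arrays and 53.8 and 52.3 on the non-transgenic arrays. Precision is limited by having 2 arrays a group. The labels do not state that each sample was a separate animal, and the p-values therefore cover only sample-to-sample spread, part or all of which may be technical. No probe set for Srf is analysed here, and the level of the transgene was not checked on these arrays. Many of the cardiomyocyte genes listed as ventricular markers were bright on all arrays. Cardiac troponin T, Tnnt2, gave 7196.5 and 7340.4 in transgenic and 8997.1 and 8374.7 in non-transgenic ventricle. Actn2, Tcap and Tpm1 of the same list were much dimmer, with group means between 93.7 and 171. Both non-transgenic arrays stood apart in hepatocyte transcripts: the 12 measured hepatocyte markers summed to 358 to 393 in transgenic and 2777 to 5171 in non-transgenic samples, and 7 of the 9 that were tested were lower. Their part in the results below was not tested.

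In transgenic ventricle, Myh7, Myl1 and Myl7 were higher and Myh6, Myl2 and Myl3 were lower, while Myl4 did not pass the test. The rises were 2.35-fold for Myh7, 4.61-fold for Myl1 and 2.60-fold for Myl7, and the falls were 1.27-fold for Myh6, 1.22-fold for Myl2 and 1.49-fold for Myl3. Fewer cells of a type and less RNA per cell cannot be told apart on these bulk arrays. All 9 probe sets passed the filter on dim probe sets. With 0.05 as the limit for the adjusted p (limma, Benjamini-Hochberg), 7 of them passed among all 7453 tested probe sets, of which 7.93% passed. Those that passed were 4 higher and 3 lower, against 4.07% higher and 3.86% lower among all tested probe sets. The chains were chosen with earlier results of these data known, and Myh7 and Myl4 count with more than 1 probe set. The shares are therefore no test of the chains as a group. In 8 of the 9 every transgenic array lay on the same side of both non-transgenic arrays, as it did in 55.9% of all tested probe sets. The median log2 change was 0.92 over the 9 probe sets and -0.01 over all tested ones. The 0.92 is the value of the brighter Myl4 probe set, which did not pass. With 3 probe sets lower, it describes no common rise of the chains. These counts rest on limma's trend of variance on signal: without the trend 1 chain was higher (Myl1) and 0 were lower.

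**Figure D1:**
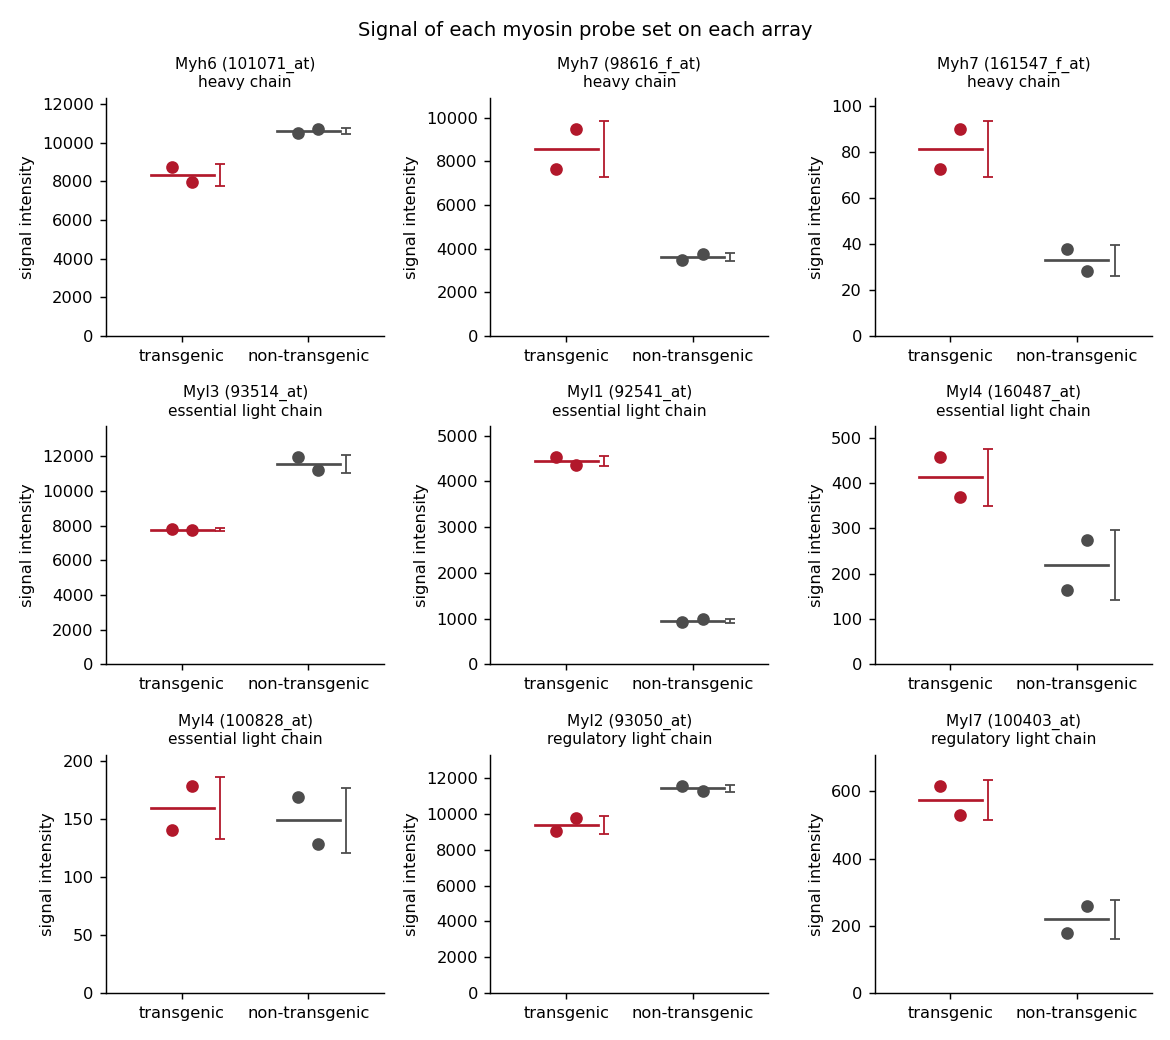
Signal intensity of each of the 9 myosin probe sets on each array, transgenic on the left and non-transgenic on the right of every panel. Points are single arrays, horizontal lines group means and error bars the SD of 2 arrays. The groups are apart in every panel except that of the dimmer Myl4 probe set.

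The heavy chains changed in opposite directions. Myh7 signal on the brighter of its probe sets was 7669.2 and 9482.7 in transgenic and 3483.3 and 3763.2 in non-transgenic ventricle, or 8576 ± 1282 in transgenic and 3623 ± 198 in non-transgenic ventricle (SD, n = 2 each). The lower transgenic array stood above the higher non-transgenic array by more than the gap between either pair of replicates. Myh7 thus changed by 1.23 ± 0.10 on the log2 scale (SE, adjusted p = 0.00132 in limma), which stayed between 1.08 and 1.39 in the 4 fits that left out an array.

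The second Myh7 probe set was dim, at 72.9 and 90.2 in transgenic and 37.7 and 28.1 in non-transgenic ventricle. Its log2 change was 1.11 ± 0.23 (adjusted p = 0.0344 in limma), close in size to that of the bright one, and 0.59 with 64 added to the signal in place of 9. It no longer passed in limma when non-transgenic replicate 2 (adjusted p = 0.0829), transgenic replicate 1 (0.0892) or transgenic replicate 2 (0.175) was left out. In this manufacturer's naming the letter f in both identifiers marks probes shared by a family of related transcripts, so signal from other heavy chains in these probe sets cannot be told apart from Myh7.

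Myh6, the fast adult heavy chain, gave 8729.7 and 7950.4 in transgenic and 10497.1 and 10715.6 in non-transgenic ventricle. The groups did not overlap, but the distance between them was small beside that of Myh7. Its log2 change of -0.35 ± 0.06 passed in limma (adjusted p = 0.0214). Leaving out non-transgenic replicate 1 (adjusted p = 0.0561), non-transgenic replicate 2 (0.0710) or transgenic replicate 2 (0.0812) ended the call, as did median centring (0.0643) and quantile normalization (log2 change -0.13, 0.270).

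**Figure D2:**
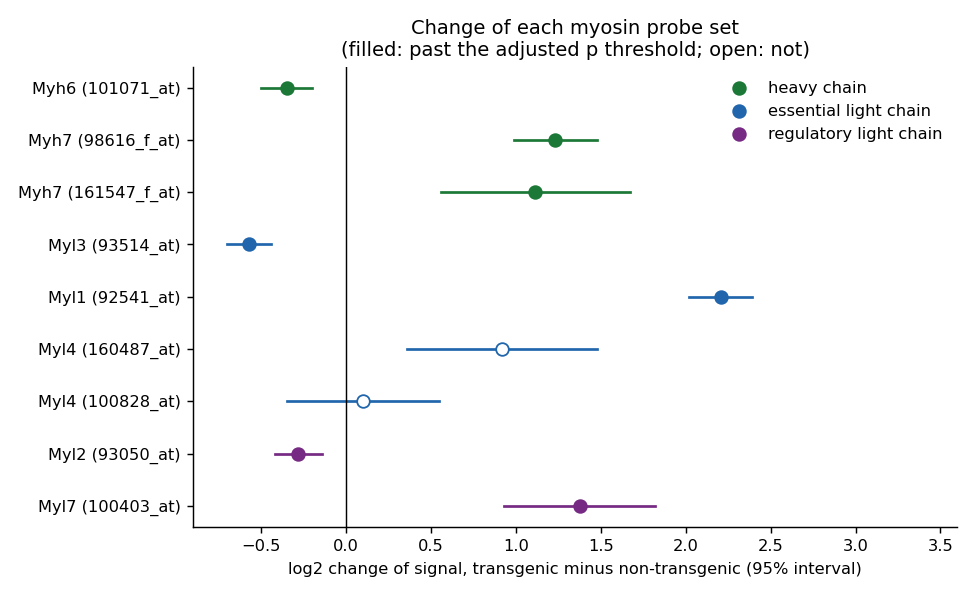
Log2 change of signal (transgenic minus non-transgenic) of each probe set with its 95% interval from limma, grouped by heavy, essential light and regulatory light chains. The 3 probe sets left of 0 are Myh6, Myl3 and Myl2, and Myl1 is farthest right at 2.21.

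Among the essential light chains, Myl1 rose and the ventricular form Myl3 fell. Myl1 signal was 4522.3 and 4366.6 in transgenic and 924.5 and 989.6 in non-transgenic ventricle, with replicates close together in both groups. The log2 change was 2.21 ± 0.08 (95% interval 2.02 to 2.39, adjusted p = 0.000108 in limma). It lay between 2.14 and 2.29 under the 15 alternatives and lost its call only in the ordinary test without moderation (adjusted p = 0.163).

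Myl3 gave 7816.0 and 7722.8 in transgenic and 11918.9 and 11178.3 in non-transgenic ventricle. The transgenic arrays lay close together and well below both non-transgenic ones. This was a log2 change of -0.57 ± 0.06 with an adjusted p of 0.00281 in limma, and quantile normalization moved it to -0.29 (adjusted p = 0.0199).

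The atrial and embryonic form Myl4 had 2 probe sets that differed. The brighter one gave 456.4 and 368.6 in transgenic and 164.2 and 274.5 in non-transgenic ventricle, groups that were apart although the non-transgenic arrays were far from each other. The log2 change was 0.92 ± 0.24 and did not pass (95% interval 0.36 to 1.48, adjusted p = 0.0635 in limma). In limma it did pass once non-transgenic replicate 2 (log2 change 1.28, adjusted p = 0.0149) or transgenic replicate 2 (1.07, 0.0472) was left out, and when the filter dropped the lowest 60% (0.0329). Without non-transgenic replicate 1 the change was 0.56 (adjusted p = 0.114) and without transgenic replicate 1 it was 0.77 (0.165), and neither passed. On the dimmer one the values were 140.6 and 178.7 in transgenic and 168.8 and 128.9 in non-transgenic ventricle, which overlapped. That log2 change was 0.10, with a 95% interval from -0.35 to 0.55 (adjusted p = 0.796 in limma).

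The regulatory light chains showed the same division between a bright ventricular and a dimmer atrial form. Myl7, the atrial form, gave 616.3 and 531.0 in transgenic and 177.2 and 260.2 in non-transgenic ventricle. Both transgenic arrays were above both non-transgenic ones by more than the spread of either pair. Myl7 was higher by 1.38 ± 0.19 on the log2 scale (limma, adjusted p = 0.00898). Without any single array the adjusted p in limma was at most 0.0156.

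Myl2, the ventricular form, gave 9025.6 and 9760.3 in transgenic and 11572.0 and 11286.8 in non-transgenic ventricle. The groups did not overlap. The change of -0.28 ± 0.06 on the log2 scale passed in limma (adjusted p = 0.0336). It did not pass without non-transgenic replicate 1 (adjusted p = 0.104), non-transgenic replicate 2 (0.0773) or transgenic replicate 1 (0.160) and after median centring (0.0642), and under quantile normalization the change was 0.00.

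The 3 chains that fell are among the brightest transcripts of the array. Myh6, Myl2 and Myl3 held ranks between 3 and 15 of 12422 on every array. Of the 100 brightest tested probe sets, a group described after the values were seen, 78 had a log2 change below 0, with a median of -0.22, and 37 were called lower and 9 higher. The highest signals on the arrays were 12023.0 and 12810.5 in transgenic and 14193.8 and 13719.3 in non-transgenic samples. Whether signals this bright were still proportional to RNA was not tested.

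A ratio of 2 chains within an array is free of that array's scaling, so isoform balance was read as the log2 ratio of the brightest probe sets. Probe sets differ in how they respond to RNA, so the level of a ratio or share is not a share of molecules and only its change between groups can be read. Myh7 made up 46.8% and 54.4% of the summed Myh7 and Myh6 signal in transgenic ventricle and 24.9% and 26.0% in non-transgenic ventricle. The log2 ratio of Myh7 to Myh6 averaged 0.03 ± 0.31 in transgenic and -1.55 ± 0.06 in non-transgenic samples (SD, n = 2 each), a difference of 1.58, or 3.0-fold. With the dim Myh7 probe set the difference was 1.67. Quantile normalization, which ended the call of Myh6, left the difference at 1.55.

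Of the 4 ratios, Myl1 over Myl3 had the largest difference. Myl1 was 36.7% and 36.1% of the summed Myl1 and Myl3 signal in transgenic and 7.20% and 8.13% in non-transgenic ventricle, and the log2 ratio differed by 2.79, or 6.90-fold. For Myl4 with Myl3 the shares were 5.52% and 4.56% in transgenic and 1.36% and 2.40% in non-transgenic ventricle, a difference in log2 ratio of 1.52 with the brighter Myl4 probe set and of 0.67 with the dimmer one. Among regulatory chains, Myl7 was 6.39% and 5.16% of the summed Myl7 and Myl2 signal in transgenic and 1.51% and 2.25% in non-transgenic ventricle, and the log2 ratio differed by 1.70, or 3.24-fold. Quantile normalization lowered these differences to 2.51 for Myl1 over Myl3, 1.23 for Myl4 (brighter probe set) over Myl3 and 1.37 for Myl7 over Myl2. In each of these 4 ratios both transgenic arrays were above both non-transgenic arrays. The exact permutation test over the arrays gave p = 0.333 for each, two-sided, which is the smallest value that 2 against 2 arrays allow, so no ratio could pass a test of its own.

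**Figure D3:**
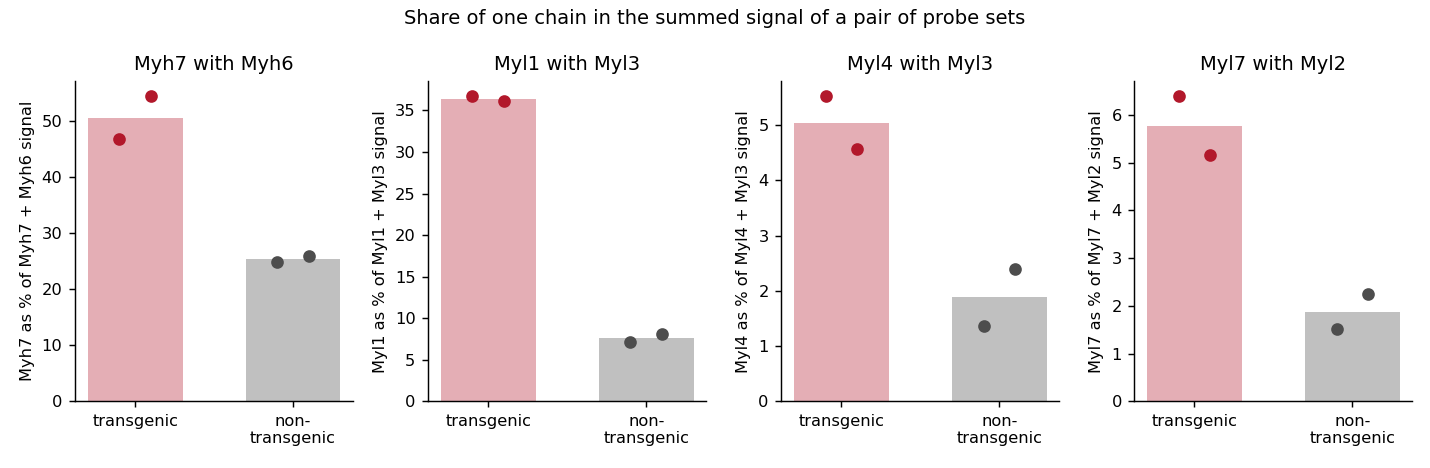
Share of Myh7, Myl1, Myl4 (brighter probe set) and Myl7 in the summed signal with their ventricular partner, in percent, transgenic left and non-transgenic right. Bars are group means and points single arrays. All 4 shares are higher on both transgenic arrays.

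Myl4 on its brighter probe set and Myl7 had the same order of replicates within groups. Transgenic replicate 1 was above replicate 2 and non-transgenic replicate 2 above replicate 1 for both. The dimmer Myl4 probe set had the reverse order in both groups. How many of all probe sets share either order was not counted. Of 15 atrial markers outside these chains 11 were measured and 6 tested, of which 1 was higher, 1 lower and 4 did not pass, with a median log2 change of -0.20. The higher one was Nppa, the atrial natriuretic peptide, which the stressed ventricle also makes, at 2023.7 and 1879.2 in transgenic and 460.9 and 411.9 in non-transgenic samples (log2 change 2.14 ± 0.10, adjusted p = 0.000215 in limma). Stard10, a lipid transfer protein, fell by 1.03 ± 0.16 on the log2 scale (adjusted p = 0.0127 in limma). The list summed to 2429 to 2610 in transgenic and 1153 to 1224 in non-transgenic ventricle, and without Nppa to 550 to 586 in transgenic and 741 to 763 in non-transgenic ventricle. Sarcolipin, Sln, a defining atrial gene, was under the filter at 19.6 and 6.6 in transgenic and 10.1 and 22.8 in non-transgenic samples, which overlapped. Bmp10, a growth factor of the atrium, was also under the filter, at 20.6 and 23.6 in transgenic and 5.5 and 6.8 in non-transgenic samples. Of the 10 measured markers other than Nppa, 3 lay lower on both transgenic arrays, 1 lay higher and 6 overlapped. The groups did not overlap in 55.9% of all tested probe sets, a share that leaves out probe sets under the filter, where some of these markers lie. The part of atrial tissue in the rise of Myl7 was not tested beyond these values.

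Myl1 belongs with fast skeletal muscle myosin, and the other chains of that muscle did not pass the test where they were bright enough for it. Of 10 other muscle myosin chains 8 were measured and 3 passed the filter, with a median log2 change of -0.35. Of these 0 passed in limma after Benjamini-Hochberg adjustment, and Mylpf alone had an unadjusted p below 0.05. The fast heavy chain Myh1 gave 6.6 and 1.0 in transgenic and 22.8 and 30.0 in non-transgenic samples, below the filter. Mylpf, the regulatory light chain of fast skeletal muscle, gave 38.4 and 33.9 in transgenic and 70.9 and 70.1 in non-transgenic samples, a change of -0.82 ± 0.21 on the log2 scale that did not pass (limma, adjusted p = 0.0635). Myh4, a further fast heavy chain, gave 74.9 and 71.4 in transgenic and 78.2 and 116.5 in non-transgenic samples (adjusted p = 0.380 in limma). A dimmer Myh4 probe set, under the filter and not tested, gave 0.6 and 0.9 in transgenic and 11.9 and 16.5 in non-transgenic samples.

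Among 25 skeletal muscle markers 23 were measured and 15 tested, of which 2 were higher, 1 lower and 12 did not pass (median log2 change -0.04). Casq1, the calcium store protein of skeletal muscle, rose by 1.48 ± 0.07 and skeletal alpha-actin, Acta1, by 0.84 ± 0.07 on the log2 scale. Atp2a1, the calcium pump of fast fibres, fell by 1.63 ± 0.27, at 39.4 and 68.2 in transgenic and 154.4 and 210.4 in non-transgenic samples (adjusted p = 0.0155 in limma, and 0.0552 without non-transgenic replicate 2). The list summed to 15211 to 15539 in transgenic and 11036 to 11110 in non-transgenic ventricle. Without its bright members Acta1, Casq1 and Eno3, left out after their values were seen, the sums were 1236 to 1261 in transgenic and 1360 to 1434 in non-transgenic ventricle, and 8 of the 20 remaining genes lay lower on both transgenic arrays, 1 lay higher and 11 overlapped. Among all tested probe sets 55.9% did not overlap. That share leaves out probe sets under the filter, whereas some of the 20 genes were under it.

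**Figure D4:**
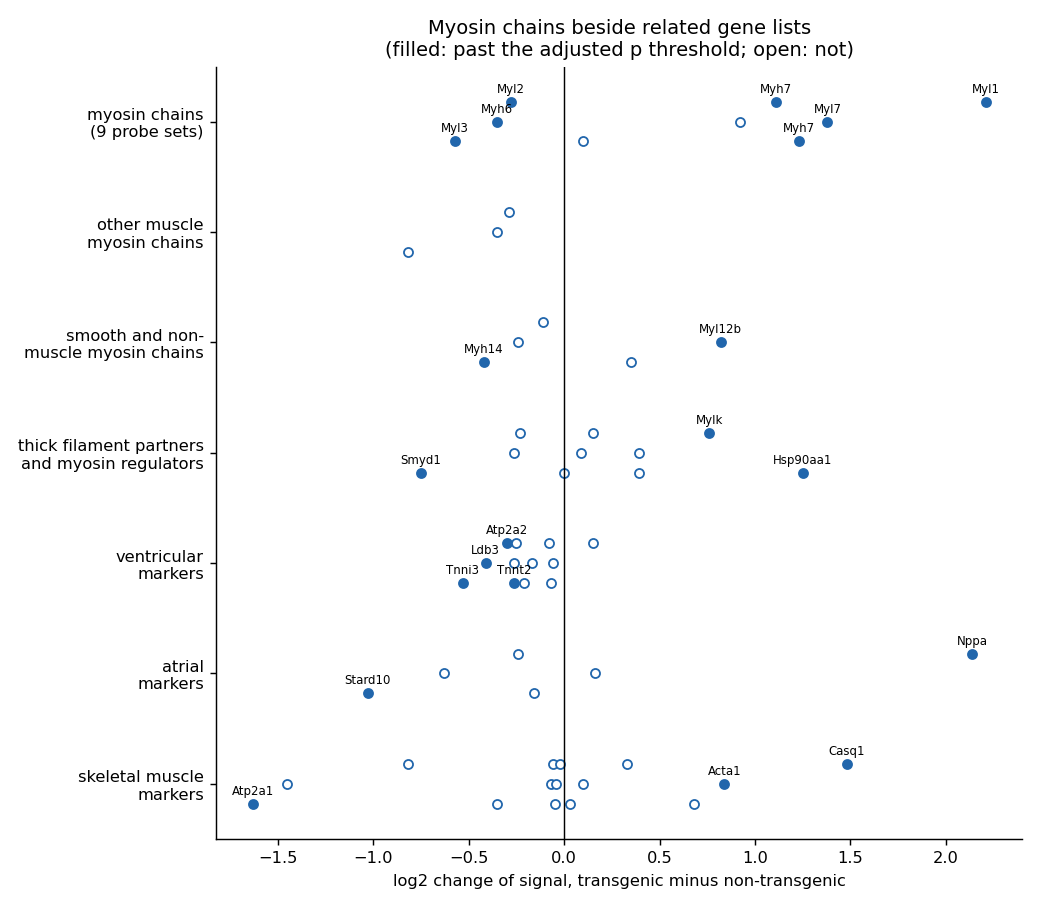
Log2 change (transgenic minus non-transgenic) of the 9 myosin probe sets and of the tested genes of 6 related lists, 1 point per gene at its brightest probe set. Filled points passed the adjusted p threshold and carry the gene name. Myl1 and Nppa reach above 2, while the other muscle myosin chains lie below 0.

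Some bright cardiomyocyte genes outside the myosins fell as well. Of 16 genes listed as ventricular markers outside the myosins 12 were measured and tested. Of these 4 were lower, 0 higher and 8 did not pass (median log2 change -0.23). Most of them, such as Tnnt2 and Tnni3, are also made by atrial cardiomyocytes, so the list does not mark the ventricle alone. Irx4 and Hey2 of the list were not measured. Cardiac troponin I, Tnni3, fell by 0.53 ± 0.05 on the log2 scale (adjusted p = 0.00311 in limma) and the Z-disc protein Ldb3 by 0.41 ± 0.08 (0.0242). The calls of Tnnt2 and Atp2a2, the cardiac calcium pump, ended without any 1 of the 4 arrays, and that of Ldb3 without non-transgenic replicate 2 or transgenic replicate 2, with an adjusted p of up to 0.181 in limma over these fits. After median centring or quantile normalization Tnni3 alone of the 4 still passed, and quantile normalization put its log2 change at -0.27, that of Ldb3 at -0.32, that of Atp2a2 at -0.18 and that of Tnnt2 at -0.01.

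Of 27 partners and regulators of the thick filament 12 were measured and 10 tested, of which 2 were higher, 1 lower and 7 did not pass (median log2 change 0.12). Hsp90aa1, a chaperone that helps to fold myosin heads, gave 1514.9 and 1304.1 in transgenic and 506.5 and 680.1 in non-transgenic samples, 1.25 ± 0.15 higher on the log2 scale (limma, adjusted p = 0.00558). Mylk, the light chain kinase of smooth muscle and other cells, rose by 0.76 ± 0.11 (adjusted p = 0.0117 in limma). Smyd1, a muscle methyltransferase needed for thick filament assembly in zebrafish, gave 675.3 and 594.0 in transgenic and 955.2 and 1194.0 in non-transgenic samples, with a change of -0.75 ± 0.13 on the log2 scale (limma, adjusted p = 0.0199, and 0.0553 without non-transgenic replicate 2). Mybpc3, cardiac myosin binding protein C, had a log2 change of -0.23 ± 0.06 and did not pass (adjusted p = 0.0577 in limma).

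Of 8 smooth and non-muscle myosin chains 7 were measured and 5 tested, of which 1 was higher, 1 lower and 3 did not pass (median log2 change -0.11). Myl12b, a regulatory light chain of non-muscle myosin, rose by 0.82 ± 0.10, with 1658.1 and 1863.1 in transgenic and 1040.1 and 942.5 in non-transgenic samples (adjusted p = 0.00528 in limma). Myh14, a non-muscle heavy chain, fell by 0.42 ± 0.10 (limma, adjusted p = 0.0477), a call that ended without any 1 of the 4 arrays (0.0940 to 0.202). Of the 9 measured smooth muscle markers 8 were tested, with 2 higher (Acta2 and Mylk) and 0 lower.

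Of the fibroblast markers 10 of 14 tested genes were higher, and of the macrophage markers 5 of 8, with 0 lower in either list. With an array left out 7 to 9 of the 10 and 3 to 4 of the 5 still passed in limma, and without the variance trend 4 and 0 did. Tcf21 lost its call without any 1 of the 4 arrays (adjusted p up to 0.147 in limma), Lum in 3 of these fits (up to 0.150), Cd14 in 3 (up to 0.176), and Col3a1 and C1qc in 2 each (up to 0.125 and 0.0515). Lyz2 lost it without transgenic replicate 1 (0.0779). The fibroblast list summed to 12756 to 13247 in transgenic and 7789 to 7940 in non-transgenic ventricle, and the macrophage list to 3958 to 4073 in transgenic and 2412 to 2664 in non-transgenic ventricle. The fibroblast genes included the collagens Col1a1, at 1151.2 and 1165.6 in transgenic and 530.1 and 566.1 in non-transgenic samples, Col1a2 and Col3a1, and the matrix gene Postn. Other probe sets of these collagens did not pass, with log2 changes of 0.25 for Col1a1, -0.17 for Col1a2, and 0.68 and 0.11 for Col3a1. The dimmer probe set of Mfap5, also a called gene, did not pass either (log2 change -0.05). Vim, an intermediate filament gene, gave 19.5 and 30.8 in transgenic and 72.5 and 44.4 in non-transgenic samples (adjusted p = 0.113 in limma). Pdgfra, a growth factor receptor, gave 331.9 and 298.3 in transgenic and 523.0 and 391.1 in non-transgenic samples (adjusted p = 0.106 in limma). Both lay lower on the transgenic arrays and did not pass, and a dimmer probe set of Pdgfra lay higher, at 50.9 and 46.5 in transgenic and 23.4 and 27.3 in non-transgenic samples. The macrophage genes included the complement parts C1qb and C1qc and the lysozyme Lyz2. Their part in the fall of the ventricular chains was not tested. Endothelial markers summed to 4663 to 4728 in transgenic and 4558 to 4666 in non-transgenic samples, with Eng higher and Tie1 lower among 10. Each lost its call in 3 of the 4 fits without an array (adjusted p up to 0.0698 for Eng and 0.112 for Tie1 in limma), and Tie1 also after median centring (0.0556).

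Of 36 listed regulators of myosin genes, mostly transcription factors, 29 were measured and 24 tested, of which 1 was lower, 0 higher and 23 did not pass (median log2 change 0.00). The lower one was Hopx, a homeodomain protein that binds SRF, at 1803.0 and 1847.2 in transgenic and 3115.9 and 3438.6 in non-transgenic samples (log2 change -0.84 ± 0.08, adjusted p = 0.00213 in limma). Max, a bHLH partner of Myc, had the next smallest p and did not pass (log2 change 0.68 ± 0.18, adjusted p = 0.0655 in limma).

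The genes whose 4 log2 values, each taken from its own non-transgenic mean, lay nearest to those of Myl1 were Ccn2, Nppa, Postn, Plagl1 and Procr, at Euclidean distances of 0.199 to 0.361 over the 4 arrays. Nearest to Myh7 (brighter probe set) were Mtx1, Bdkrb1, Sirpa, Mfap5 and Rps4l, at 0.120 to 0.254. With 4 arrays in 2 groups this measure picks genes with a change of like size, and it says nothing of shared control. All 10 were called higher in limma, with log2 changes of 2.02 to 2.14 around Myl1 and 1.17 to 1.34 around Myh7.

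**Figure D5:**
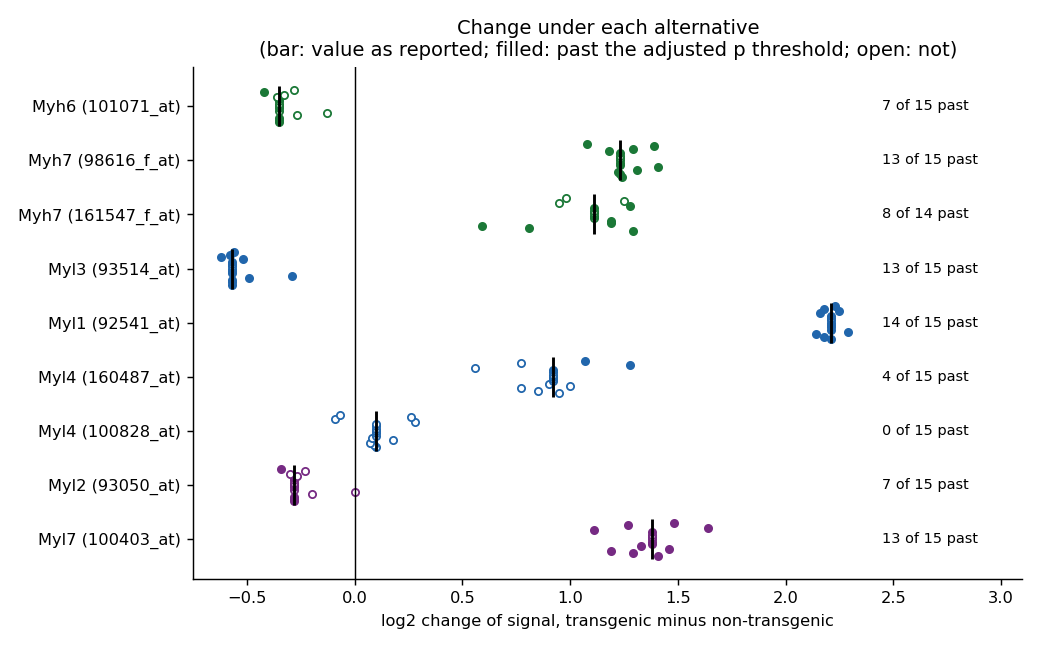
Log2 change (transgenic minus non-transgenic) of each probe set under the alternatives tried, each point 1 alternative, filled where it passed the adjusted p threshold, with a black bar at the reported value and the count past the threshold on the right. Myl1 and Myl7 stay right of 1, Myl3 stays left of 0, and Myl2 reaches 0 under quantile normalization.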

How the data were processed

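Total RNA of heart ventricle was extracted, purified with a Qiagen kit and labelled by the Affymetrix protocol, per the labels' protocols. The deposited values are linear signal intensities, judged from the values. Each array had a mean of 150.0 once the top and bottom 2% were left out, as scaling by the authors to a common target would give, and the software and genome build were not given in the sources. Gene names came from the platform annotation, with 10817 gene numbers matched to RefSeq and 0 symbols changed. The members and lists were chosen with earlier results of these data known.

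Of 12488 probe sets 66 controls were left out. Signals were taken as log2(signal + 9), 9 being the 20th percentile of all values, and fold changes are on this scale. Array medians on it lay within 0.118, so no further scaling was applied. Probe sets in the lowest 40% by mean log2 value were dropped, and 7453 were tested with lmFit and eBayes (trend) of limma 3.58.1 in R 4.3.3, with Benjamini-Hochberg adjustment over all of them and a threshold of 0.05. Prior and residual degrees of freedom were 5.05 and 2. Ratios of chains used signals without the added 9 and an exact permutation test (scipy 1.17.1). A gene with several probe sets was counted in lists at the brightest. The rule for named genes took, from each list, all genes past the threshold and where fewer than 2 passed those with the smallest p up to 2, every myosin probe set, and the 5 genes nearest to Myh7 and to Myl1. Of long lists examples are given. Sln, Bmp10, Myh1, Mybpc3, Vim, Pdgfra, Actn2, Tcap and Tpm1 were named after their values were seen. The fit was also run on simulated arrays whose variances were drawn from limma's own fitted trend and prior. That run therefore cannot check the trend. Alternatives were other pseudocounts, scalings, filters and variance models, a replicate block and leaving out each array. The arrays carry no batch labels.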

Additional observations from a re-analysis of the deposited data

How the results depend on the processing

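Directions of the 7 called probe sets, of 6 chains, were kept under all alternatives run, except that Myl2 was at 0.00 after quantile normalization. The number of higher and lower probe sets was 303 and 288. It was 172 and 157 with no filter, 44 and 34 for eBayes without a trend, and 0 and 0 in the ordinary test, where 1175 had an unadjusted p below 0.05. When an array was left out, with the lone array of its group assumed to vary like the others, it ranged from 125 to 232 higher and from 158 to 191 lower. Myosin probe sets higher, 4 as reported, were 1 without a trend, 0 in the ordinary test and 3 to 4 with an array left out. Those lower, 3 as reported, were 1 after median centring, quantile normalization or no filter, 0 without a trend or in the ordinary test, and 1 to 2 with an array left out. Median centring made 66.8% of all called probe sets higher, against 51.3%. The log2 ratios ranged, with an array left out, from 1.36 to 1.80 for Myh7 over Myh6, 2.69 to 2.88 for Myl1 over Myl3, 1.10 to 1.94 for Myl4 over Myl3 and 1.40 to 1.99 for Myl7 over Myl2. Of 40 called genes in the lists outside these chains, 28 to 32 kept the call with an array left out and 11 without a trend. The dimmer Myl4 probe set ranged from -0.09 to 0.28 with an array left out, and was -0.09 without non-transgenic replicate 2 and -0.07 without transgenic replicate 2. The second Myh7 probe set fell under the filter when the lowest 60% were left out. No shared difference by replicate number was visible between the groups (correlation of the differences between replicates -0.06). This cannot show whether the samples were paired. The replicate block gave 348 higher and 345 lower, with 5 and 3 of the myosin probe sets. The brighter Myl4 probe set was the added one (adjusted p = 0.0279 in limma).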
